A study of Mus musculus with 2 samples.

Results

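The 47 genes described here are named for the nuclear part of mitochondrial complex I: 38 counted as subunits, 8 assembly factors named Ndufaf1 to Ndufaf8, and the isoform Ndufa4l2. They are every gene whose symbol reads Nduf followed by a, b, c, s, v, ab or af and a number, with at least 20 unique molecular identifiers (UMIs, each marking 1 captured mRNA molecule) over both libraries. All 47 symbols that matched passed this minimum, out of 22625 genes listed, and the member with the fewest, Ndufaf5, had 588 UMIs. Ndufb1-ps is counted with the subunits under its listed name, although its annotation type is a long non-coding RNA at a bidirectional promoter, and values for it are given with that reserve.

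The cells came from the hippocampus of 12-week-old mice that carry Nestin-CreERT2, a Cre recombinase driven in Nestin-expressing stem cells and switched on by tamoxifen, and a YFP reporter at ROSA26. Tamoxifen was given to both groups at 8 weeks of age. In Opa1 cKO mice the floxed Opa1 gene is removed in the cells in which Cre acts, whereas control (CT) mice lacked the floxed Opa1 allele; the strain label of both samples names the same 3 alleles. Living YFP+ cells from 3 mice of each genotype went together into a single 10x Genomics 3′ library, so that genotype and library cannot be told apart and no test between genotypes is possible. Each interval below is a 95% interval for counting error alone.

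Complex I takes electrons from NADH and hands them to ubiquinone, and it uses the energy to pump protons across the inner mitochondrial membrane. It has the shape of an L. The matrix arm holds the N module, which oxidises NADH, and the Q module, which reduces ubiquinone, and the membrane arm holds the proton-pumping modules named after the subunits ND1, ND2, ND4 and ND5. The mitochondrially encoded subunits, these among them, are made inside the organelle, while all other subunits are made in the cytosol and imported. Assembly factors help to build the complex and are absent from the finished enzyme. OPA1 fuses inner membranes and shapes the cristae in which the respiratory complexes sit. Adult neural stem cells are known to depend more on oxidative phosphorylation as they leave quiescence and differentiate.

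Promoter sequences are shown for 5 members, since many nuclear genes of respiration carry sites of the factors NRF1 and ETS. RefSeq (GRCm38.p6) held a promoter window for 40 of the 47 members. The 250 bases before the annotated start were searched on both strands. The NRF1 motif (GCGCA, any base, then GCGC) was found in 7 of 40 members (17.5%) and in 4.23% of 27025 genes, and the ETS motif CCGGAAG in 5 of 40 (12.5%) and in 7.83%. The ATF4 motif TGATGNAA was found in 0 of 40 members and 3.91% of all genes, and the YY1 motif (AANATGG followed directly by CGGC) in 0 of 40 and 0.411%. Of the 7 assembly factors with a window, 2 held the ETS motif and 1 the NRF1 motif, and only these are shown. The other assembly factors with a window held none of the 4 motifs, and Ndufaf6 had no window. A match is a description of letters and not a binding site. The 150 bases before the start follow for 3 assembly factors (Ndufaf1, Ndufaf4 and Ndufaf8) and for 2 subunits of the ND2 module (Ndufs5 and Ndufc2), 5′ to 3′ on the strand of the gene, with motif matches in capitals. Ndufaf1 (chr2:119662835-119662984, minus strand) and Ndufaf8 (chr11:120098784-120098933, plus strand) hold an ETS motif that begins 18 and 8 bases before the start. Ndufaf4 (chr4:24897933-24898082, plus strand) and Ndufs5 (chr4:123718187-123718336, minus strand) hold an NRF1 motif that begins 113 and 98 bases before it. Ndufc2 (chr7:97399853-97400002, plus strand) holds none of the 4 motifs.
Ndufaf1: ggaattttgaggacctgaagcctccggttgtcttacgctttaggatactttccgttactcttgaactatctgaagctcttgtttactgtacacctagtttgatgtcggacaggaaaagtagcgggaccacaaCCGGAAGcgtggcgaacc
Ndufaf4: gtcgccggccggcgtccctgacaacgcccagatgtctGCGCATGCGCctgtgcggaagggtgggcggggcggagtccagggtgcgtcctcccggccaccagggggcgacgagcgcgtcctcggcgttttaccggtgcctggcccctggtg
Ndufaf8: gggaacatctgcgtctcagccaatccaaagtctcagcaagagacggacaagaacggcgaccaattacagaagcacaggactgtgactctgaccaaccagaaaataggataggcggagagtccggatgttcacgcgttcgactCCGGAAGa
Ndufs5: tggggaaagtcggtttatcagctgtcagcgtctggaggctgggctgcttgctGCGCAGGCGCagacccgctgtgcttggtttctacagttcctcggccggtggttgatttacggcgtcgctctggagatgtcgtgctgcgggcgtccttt
Ndufc2: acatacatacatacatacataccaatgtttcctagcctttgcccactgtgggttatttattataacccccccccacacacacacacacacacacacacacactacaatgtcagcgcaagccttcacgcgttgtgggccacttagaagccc

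The matrices held 4634 barcodes with 10799936 UMIs for CT and 6475 barcodes with 18662032 UMIs for Opa1 cKO, and 36 barcodes occurred in both. After the filters 1790 CT cells (median 2555 UMIs) and 3764 Opa1 cKO cells (median 3008 UMIs) remained, among them 9 shared barcodes. Clusters were named from marker genes. The NSC pool-like cells were 1344 in CT and 2671 in Opa1 cKO, joined from a cluster of 1316 CT and 1141 Opa1 cKO cells and a cluster of 28 CT and 1530 Opa1 cKO cells whose leading genes include Nupr1 and Gdf15. Their markers are shared with astrocytes, which were not told apart. Opa1 itself had 69 UMIs in CT NSC pool-like cells (18.7 CPM, that is, per 1000000 UMIs of those cells) and 66 in Opa1 cKO (7.49 CPM). Among NSC pool-like cells all 5 erythroid markers had UMIs in both libraries and summed to 318 CPM in CT against 9.07 in Opa1 cKO; mural markers summed to 200 and 157 CPM, oligodendrocyte markers to 387 and 442 CPM, and microglial markers to 71.9 and 119 CPM. Oligodendrocyte precursor markers, 5 of 7 with UMIs, summed to 122 CPM in CT and 321 in Opa1 cKO. Their part in the results was not tested.

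The subunit mRNAs together were slightly more abundant in Opa1 cKO NSC pool-like cells than in CT. They took 17928 CPM (17791 to 18065) in CT against 20109 (20016 to 20203) in Opa1 cKO, which gives a log2 ratio of 0.17 (0.15 to 0.18). A gene is called higher or lower here if its log2 ratio of CPM lay beyond 0.32 on either side, its counting interval left out 0 and it had at least 100 UMIs in the comparison. By this rule 10 of 38 subunits were higher in Opa1 cKO and 0 were lower, beside 26.2% of 8795 genes called higher and 19.4% called lower. The share of subunits called higher, 26.3%, was near this background. Among the 2163 genes with at least 1000 UMIs, a depth that all 38 subunits reached, 38.7% were higher and 14.2% lower, a share above that of the subunits. Of the 38 subunits 31 had a ratio above 0, or 28 when scaled to nuclear UMIs and 27 when centred on the median gene. Their median log2 ratio was 0.20, against 0.07 over the 8795 genes and 0.21 over the 2163 genes of high count.

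**Figure D1:**
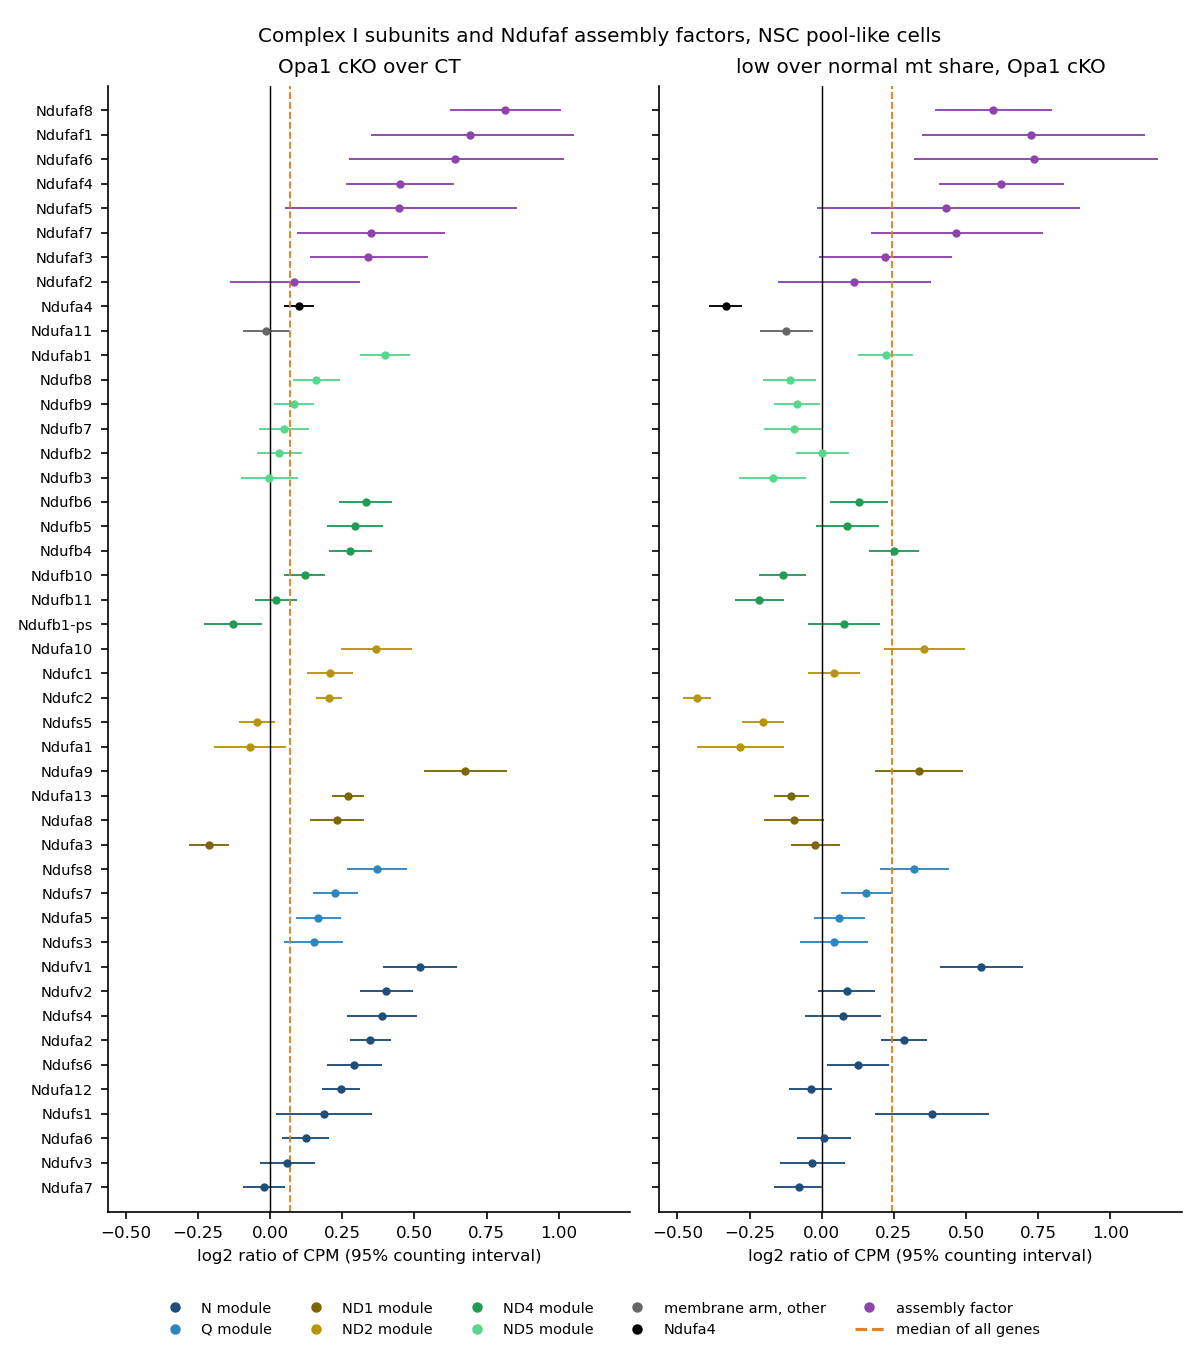
log2 ratio of CPM (x axis) for complex I members (y axis, ordered by role) in NSC pool-like cells, Opa1 cKO over CT on the left and cells of low over cells of normal mitochondrial share within Opa1 cKO on the right. Points are single genes, bars the 95% counting intervals, colours the role, and the dashed line the median over all genes (0.07 on the left and 0.24 on the right); the 8 assembly factors lie at or above 0.08 in both panels, while Ndufc2 and Ndufa4 fall by 0.43 and 0.33 on the right.

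The core subunits of the matrix arm carry the flavin and the iron-sulphur clusters of the electron path. Ndufv1 (chr19:4007384-4012806), which binds NADH and the flavin, had 176 CPM in CT against 253 in Opa1 cKO (0.52, 0.39 to 0.65). Ndufv2 (chr17:66078638-66101559), which holds an iron-sulphur cluster beside it, had 345 and 456 CPM (0.40, 0.31 to 0.49). Both electron-entry subunits were therefore higher in Opa1 cKO by more than their counting error. Ndufs8 (chr19:3908863-3912774), another iron-sulphur subunit, had 266 and 343 CPM (0.37, 0.27 to 0.48). Ndufs1, Ndufs7 and Ndufs3 did not reach the fold that counts. Ndufs1 (chr1:63143596-63176833), the largest subunit, had 109 and 124 CPM (0.19, 0.02 to 0.35), Ndufs7 (chr10:80249121-80256794), which carries the last cluster before ubiquinone, had 495 and 579 CPM (0.23, 0.15 to 0.30), and Ndufs3 (chr2:90894634-90904827) had 290 and 322 CPM (0.15, 0.05 to 0.25). Of the 3′ sequence of Ndufs3, 53.9% of 50-base stretches also occur in other genes, so that its counts are uncertain.

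Accessory subunits surround the core and stabilise it. The member with the highest ratio among all subunits was Ndufa9 (chr6:126821721-126849136), which sits where the arms join, with 133 CPM in CT against 213 in Opa1 cKO (0.68, 0.53 to 0.82). Ndufab1, the acyl carrier protein of mitochondria, had 381 and 503 CPM (0.40, 0.31 to 0.49), with the reserve that 23.2% of its 3′ stretches occur in other genes. Ndufs4, a subunit of the N module whose loss gives a Leigh-like disease in mice, had 199 and 260 CPM (0.39, 0.27 to 0.51). Also called higher were Ndufa10 at 0.37, Ndufa2 at 0.35 and Ndufb6 at 0.33. At the other end Ndufa3 had 686 and 593 CPM (-0.21, -0.28 to -0.14), Ndufb1-ps 315 and 288 CPM (-0.13, -0.23 to -0.03), Ndufa1 204 and 194 CPM (-0.07, -0.20 to 0.05), and Ndufs5 and Ndufa7 -0.04 and -0.02. None of these 5 passed the rule.

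By position, the 15 matrix arm subunits had a summed log2 ratio of 0.24 (0.21 to 0.26), with 6 higher and a median of 0.25. The 22 membrane arm subunits had 0.14 (0.12 to 0.15), with 4 higher and a median of 0.14. Beside these counts, 26.2% of all genes were called higher, and 38.7% of those with at least 1000 UMIs. The modules of the matrix arm were alike, at 0.23 for N and 0.24 for Q. Those of the membrane arm lay between 0.12 and 0.16, and Ndufa11, which belongs to no single module, at -0.01. Ndufa4 (chr6:11900292-11907497), which carries a complex I name but is now placed in cytochrome c oxidase, had 1132 and 1214 CPM (0.10, 0.05 to 0.15), and it is in neither arm's sum. Leaving it out gave 0.17 for the other 37 subunits.

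The assembly factors differed more than the subunits. The 8 Ndufaf genes summed to 403 CPM (383 to 424) in CT against 560 (544 to 576) in Opa1 cKO, which gives a log2 ratio of 0.47 (0.39 to 0.56), and 7 of 8 were called higher and 0 lower, with a median of 0.45, beside the 26.2% and 19.4% of all genes. Ndufaf8 (chr11:120098928-120100705), the partner of Ndufaf5, had 75.8 CPM in CT against 133 in Opa1 cKO (0.81, 0.62 to 1.01). Ndufaf1 (chr2:119655446-119662827), a factor for the membrane arm, had 23.6 and 38.2 CPM (0.69, 0.35 to 1.05), and Ndufaf6 (chr4:11051045-11076205) had 21.2 and 33.0 CPM (0.64, 0.28 to 1.02). The promoters of Ndufaf8 and Ndufaf1 are those shown above with an ETS motif, found in 2 of 7 assembly factors with a window. Ndufaf6 had no promoter window to search. The ETS motif also occurs in the subunits Ndufb6, Ndufb7 and Ndufs3, and a link between motif and ratio was not tested. Ndufaf4 (chr4:24898083-24905001) and Ndufaf3 (chr9:108565537-108567434), which work together on the Q module, had ratios of 0.45 (84.4 CPM in CT and 115 in Opa1 cKO) and 0.34 (71.4 and 90.4 CPM). Ndufaf5 (chr2:140170649-140203689), which hydroxylates Ndufs7, had 18.7 and 25.5 CPM (0.45, 0.05 to 0.86), and Ndufaf7 (chr17:78937136-78948052), a methyltransferase, had 45.9 and 58.4 CPM (0.35, 0.10 to 0.61). Ndufaf2 (chr13:108002715-108158623), a relative of Ndufa12 that acts late on the N module, was the exception, with 62.2 and 65.9 CPM (0.08, -0.14 to 0.31).

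The factors of complex I assembly that have no Nduf name gave similar values. Of 12 listed, 7 were higher and 0 lower in Opa1 cKO (26.2% and 19.4% of all genes), and their sum went from 432 to 635 CPM (0.55, 0.47 to 0.64). Tmem126a had 60.0 and 117 CPM, a log2 ratio of 0.97 (0.76 to 1.18). Tmem126b, Acad9 and Ecsit, which act with Ndufaf1 on the membrane arm, had ratios of 0.62, 0.57 and 0.52, and all 3 passed the rule. Timmdc1, which acts in the same group, had 0.31 (-0.06 to 0.69), and Tmem186 0.29 (-0.18 to 0.78), with intervals that include 0.

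The values of complex I lay among those of the other respiratory complexes. The 4 subunits of complex II, which is wholly nuclear-encoded, were all called higher and summed to 0.57 (0.52 to 0.63). Complex III had 4 of 9 higher (summed 0.21), complex IV 1 of 10 (0.15) and complex V 5 higher and 1 lower of 15 (0.22). The 7 mitochondrially encoded subunits of complex I itself went the other way, from 12232 to 4986 CPM, a log2 ratio of -1.29 (-1.31 to -1.28), with 5 of 7 lower. Beside all these counts, 26.2% of all genes were called higher and 19.4% lower, and 38.7% and 14.2% of those with at least 1000 UMIs. Subunit UMIs from the nucleus per mitochondrial complex I UMI were 1.47 in CT and 4.03 in Opa1 cKO.

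**Figure D2:**
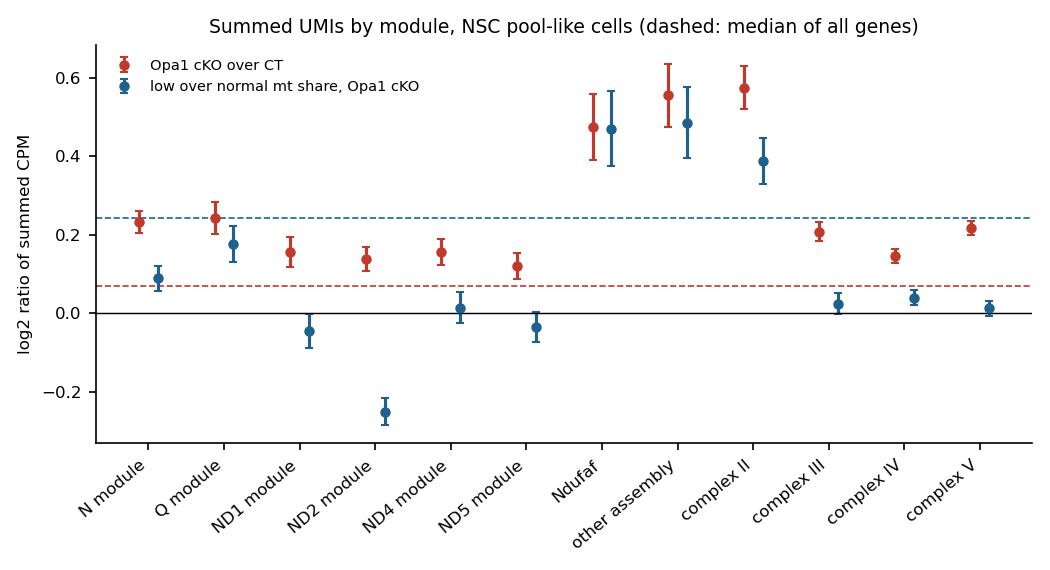
log2 ratio of summed CPM (y axis) with its 95% counting interval for each complex I module, for the Ndufaf and the other assembly factors and for the nuclear subunits of complexes II to V (x axis) in NSC pool-like cells, for Opa1 cKO over CT and for low over normal mitochondrial share within Opa1 cKO. Dashed lines are the medians of all genes in the same colours; the Ndufaf factors lie at 0.47 in both comparisons, complex II at 0.57 and 0.39, and the ND2 module at -0.25 in the comparison by share.

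Opa1 cKO cells differed widely in the share of their UMIs that came from mitochondrial genes, and this share was used to divide them. Of 2671 NSC pool-like Opa1 cKO cells, 1604 (60.1%) had a low share, under 1%, 853 (31.9%) a normal share, of 2% or more, and 214 (8.01%) lay between. In CT 3 cells were low, 12 between and 1329 normal. Depth was alike in the Opa1 cKO groups, with medians of 2995 UMIs in low and 3013 in normal cells. The share groups are ranges and not cell types, and they use only mitochondrial genes, but mitochondrial UMIs are part of the total by which CPM is scaled.

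Within Opa1 cKO, with both NSC pool-like clusters together, the summed subunits were nearly level between these groups. They took 20504 CPM in cells of normal share and 19960 CPM in cells of low share, a log2 ratio of -0.04 (-0.05 to -0.02), while the mitochondrially encoded subunits fell from 11721 to 1573 CPM, a log2 ratio of -2.90. The ratio of nuclear to mitochondrial complex I UMIs was 1.75 in normal and 12.7 in low cells. The mitochondrially encoded subunits are part of the share that defines the groups. Their fall and this ratio therefore follow from the grouping and are not separate results. By single gene 5 of 38 subunits were higher and 2 lower in low cells, beside a background of 35.4% higher and 7.27% lower over 7535 genes, and 38% and 9.2% over the 1467 genes with at least 1000 UMIs. The median ratio of the subunits was 0.03 and that of all genes 0.24. Among these cells ependymal markers summed to 210 CPM in normal and 93.2 CPM in low cells, microglial markers to 95.1 and 133 CPM and oligodendrocyte precursor markers to 154 and 404 CPM, and their part in the values was not tested.

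Both core and accessory subunits were among the members called. Among those called higher were Ndufv1, with 192 CPM in normal and 282 CPM in low cells (0.55, 0.41 to 0.70), Ndufs1, with 106 and 138 CPM (0.38, 0.19 to 0.58), Ndufa10 at 0.35 (0.22 to 0.49) and Ndufa9 at 0.34 (0.19 to 0.49). The first 2 named are core subunits, and Ndufs8 at 0.32 lay just under the fold that counts. Further core subunits were Ndufs7 at 0.15, Ndufv2 at 0.09 and Ndufs3 at 0.04. Ndufc2 (chr7:97400003-97407802), a small membrane subunit of the ND2 module, fell from 2138 to 1585 CPM, by 0.43 (-0.48 to -0.38). Ndufa4 fell from 1412 to 1121 CPM, by 0.33 (-0.39 to -0.27). Both are large contributors to the sum, with 8.70% and 6.04% of all subunit UMIs in Opa1 cKO NSC pool-like cells. The next lowest, none of which passed the rule, were Ndufa1 at -0.28, Ndufb11 at -0.22 and Ndufs5 at -0.20.

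The arms had ratios of opposite sign in this comparison. The matrix arm had a summed ratio of 0.12 (0.09 to 0.14) with 3 members higher, and the membrane arm -0.09 (-0.11 to -0.07) with 2 higher and 1 lower. Beside these counts, 35.4% of all genes were called higher and 7.27% lower, and 38% were higher among genes with at least 1000 UMIs. The lowest module was ND2 at -0.25 (-0.28 to -0.22), and the highest Q at 0.18 (0.13 to 0.22). Without Ndufc2 the ND2 module went from 1828 to 1751 CPM, a ratio of -0.06 (-0.11 to -0.01), and it also holds Ndufa10, called higher. Relative to the median gene, which itself stood at 0.24, both arms lie below 0. Scaled to nuclear UMIs, 15 subunits had a ratio above 0 and 23 below, in place of 21 and 17, and centred on the median gene 8 and 30.

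With both NSC pool-like clusters together, the assembly factors were again higher. They summed to 444 CPM in normal and 615 CPM in low cells (0.47, 0.38 to 0.57), with 5 of 8 higher and a median of 0.53. Of all genes 35.4% were called higher, and their median was 0.24. Ndufaf6 rose from 22.5 to 37.5 CPM (0.73, 0.32 to 1.17) and Ndufaf1 from 26.8 to 44.4 CPM (0.73, 0.35 to 1.12). Ndufaf4 had 84.4 and 130 CPM (0.62, 0.40 to 0.84), Ndufaf8 98.0 and 148 CPM (0.59, 0.39 to 0.80) and Ndufaf7 46.8 and 64.7 CPM (0.46, 0.17 to 0.77). Ndufaf5 at 0.43, Ndufaf3 at 0.22 and Ndufaf2 at 0.11 had intervals that include 0. All 8 were above 0 on each scale except when centred on the median gene, where 6 were. Of the 12 other assembly genes 5 were higher, a share near the 35.4% of all genes. The highest were Ecsit with 35.0 and 70.3 CPM (1.00, 0.68 to 1.34) and Tmem126a with 77.9 and 137 CPM (0.81, 0.59 to 1.04). Complex II had a ratio of 0.39, and complexes III, IV and V of 0.02, 0.04 and 0.01.

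The low cells were mostly in the cluster led by Acsbg1 and Nupr1, and the comparison was therefore repeated in each cluster. In the cluster that holds most CT cells (749 normal and 344 low Opa1 cKO cells) the summed subunits had a ratio of -0.17 (-0.20 to -0.15), Ndufc2 -0.80 (-0.90 to -0.70), Ndufa4 -0.43 (-0.54 to -0.32) and the assembly factors 0.36 (0.19 to 0.52), with an all-gene median of 0.25. In the other cluster (104 normal and 1260 low cells) these were -0.06 (-0.09 to -0.03), -0.11 (-0.22 to 0.01), -0.30 (-0.43 to -0.17) and 0.17 (-0.03 to 0.38), with an all-gene median of 0.15. The ratio of Ndufc2 was thus farther from 0 in the first cluster, and in the second its interval includes 0. The assembly factor ratio of each cluster was below the 0.47 of both together, and in the second its interval includes 0. The summed subunit ratio of each cluster was also below the -0.04 of both together, with intervals that leave out 0. Ndufv1 was alike, at 0.47 (0.23 to 0.71) and 0.49 (0.16 to 0.84).

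In finer steps of mitochondrial share the subunit sum varied less, in proportion, than the assembly factors did. From the lowest step (under 0.25%, 317 cells) to the highest (8 to 20%, 98 cells) the subunits in Opa1 cKO took 20017, 20021, 19857, 19647, 19017, 21011 and 21082 CPM. The intervals of the steps with 19017 and 21082 CPM do not overlap. Over the same 7 steps the assembly factors took 651, 625, 585, 606, 523, 419 and 401 CPM. In CT cells from 2 to 4%, 4 to 8% and 8 to 20% the assembly factors had 470, 391 and 362 CPM and the subunits 17042, 18249 and 17743 CPM. The assembly factor level was therefore highest in the lowest step of each library. In Opa1 cKO, however, the interval of the lowest step overlaps those of all other steps under 2%. In the 3 steps common to both libraries the assembly factor intervals overlapped between libraries. The subunit intervals did not overlap there, and in each of these steps Opa1 cKO lay above CT. Ndufc2 went from 1572 CPM in the lowest step to 2262 and 2473 CPM in the 2 highest in Opa1 cKO, and Ndufv1 from 312 to 190 and 184 CPM. In the 3 CT steps Ndufc2 had 1312, 1586 and 1519 CPM, and Ndufv1 170, 180 and 166 CPM.

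**Figure D3:**
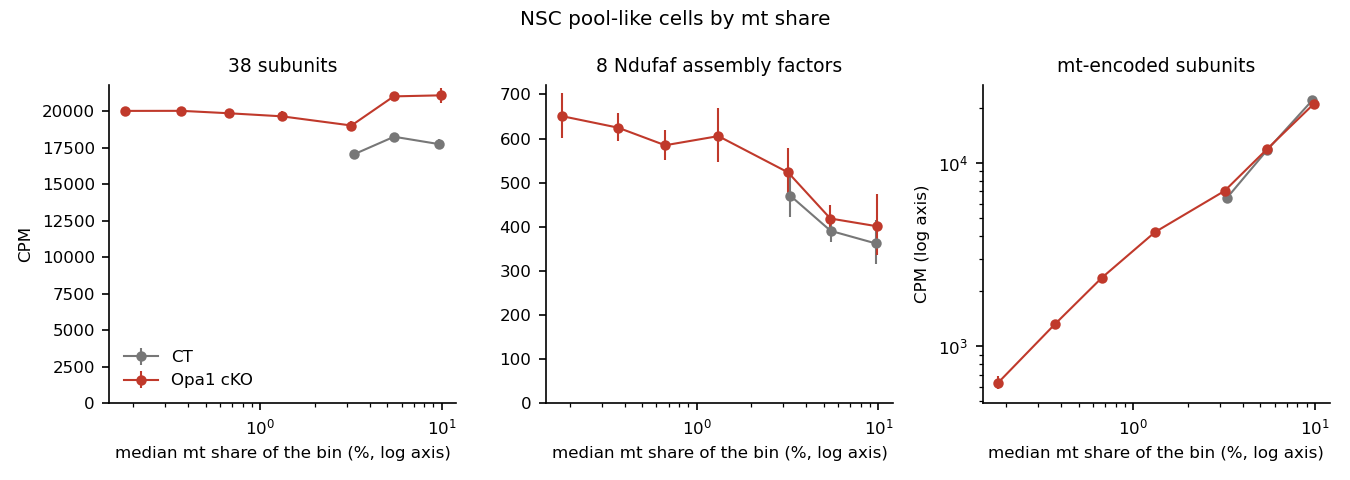
CPM with 95% counting intervals (y axes, the last one logarithmic) against the median share of UMIs from mitochondrial genes in each step (x axis, percent on a log scale) in NSC pool-like cells of CT and Opa1 cKO, for the summed subunits, assembly factors and mitochondrially encoded subunits. The subunits stay between 17042 and 21082 CPM, while the assembly factors go from 651 CPM in the lowest step to 401 CPM in the highest in Opa1 cKO. The mitochondrially encoded subunits are part of the share on the x axis, so their rise along it follows from the steps.

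With mitochondrial share held in the normal range, Opa1 cKO cells still had more subunit mRNA than CT cells. The CT cells here are nearly the same cells as in the first comparison, so that the comparisons share them. The sum was 17925 CPM in CT against 20504 in Opa1 cKO (0.19, 0.18 to 0.21), and 35 of 38 subunits had a ratio above 0. By the rule 5 subunits were called higher and 0 lower, beside 8.55% and 18.9% of 6831 genes and an all-gene median of -0.06. The background of genes with at least 1000 UMIs was not computed for this comparison, so the subunits are not set beside genes of like depth. The 5 were Ndufc2 with 1520 and 2138 CPM (0.49, 0.44 to 0.54), Ndufa9 with 133 and 181 CPM (0.44, 0.26 to 0.62), Ndufv2 at 0.35, Ndufs4 at 0.34 and Ndufa13 at 0.33. Ndufa4 at 0.32 lay just under the fold that counts. The lowest ratios were those of Ndufa3 at -0.21, Ndufb1-ps at -0.18 and Ndufs1 at -0.05. Of the assembly factors only Ndufaf8 was called, 1 of 8, with 76.3 and 98.0 CPM (0.36, 0.11 to 0.61), and their sum had a ratio of 0.14 (0.03 to 0.25); Ndufaf4 and Ndufaf2 had 0.01 and 0.02.

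Low-share Opa1 cKO cells against normal CT cells, which again share the CT cells, gave 14 of 38 subunits higher and 0 lower (background 34.9% and 19.4% of 7975 genes, median 0.14). Here too the background of genes with at least 1000 UMIs was not computed. The summed ratio of the subunits was 0.16 (0.14 to 0.17). Of the assembly factors 7 of 8 were higher, and the sum had a ratio of 0.61 (0.52 to 0.70). The highest members were Ndufaf8 at 0.95 (76.3 CPM in CT and 148 in Opa1 cKO), Ndufaf1 at 0.90 (23.8 and 44.4 CPM), Ndufaf6 at 0.81, Ndufa9 at 0.77 and Ndufv1 at 0.68, and the lowest Ndufa3 at -0.23, Ndufa1 at -0.21, Ndufb1-ps at -0.11, Ndufs5 at -0.10 and Ndufa11 at -0.06. Ndufc2, higher in normal Opa1 cKO cells than in CT, had 1520 and 1585 CPM here (0.06, 0.01 to 0.11).

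Per cell, the subunits took a median of 1.71% of UMIs in CT (1.04% at the 5th and 2.51% at the 95th percentile), 1.94% in low Opa1 cKO cells (1.31% and 2.64%) and 1.97% in normal Opa1 cKO cells (1.30% and 2.78%). The spreads over cells overlap widely. With each cell thinned to 1500 UMIs, a median of 17 of the 38 subunits had a UMI in a CT cell and 19 in an Opa1 cKO cell, with 93 and 216 shallower cells left out.

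The subunit sum was higher in the Opa1 cKO library in each of the other cell classes too. Going along the lineage, activated NSC-like cells (44 CT and 320 Opa1 cKO cells) had 15642 and 17056 CPM (0.12, 0.06 to 0.19), below the all-gene median of 0.18. Microglial markers in this class summed to 74.8 CPM in CT and 381 in Opa1 cKO, ependymal markers to 208 and 436 CPM, and progenitor and neuron markers to 1487 and 973 CPM, and their part was not tested. Progenitor and neuron-like cells (139 and 171) had 10699 and 14086 CPM, the largest ratio of any class at 0.40 (0.35 to 0.45), with an all-gene median of 0.08. Its make-up moved as well: NSC pool markers summed to 8566 CPM in CT and 13667 in Opa1 cKO, progenitor and neuron markers to 20996 and 16010 CPM, and mature neuron markers to 324 and 647 CPM, and their part in the ratio was not tested. In that class the highest members were Ndufa9 at 0.97, Ndufa8 at 0.93, Ndufb4 at 0.90, Ndufc2 at 0.73 and Ndufs4 at 0.62, and the lowest Ndufb7 at -0.12, Ndufa3 at -0.10, Ndufa7 at 0.09, Ndufs8 at 0.09 and Ndufb1-ps at 0.11. The assembly factors had 391 and 407 CPM there (0.06, -0.23 to 0.34). They had 332 CPM (40 UMIs) and 599 CPM in activated NSC-like cells (0.85, 0.39 to 1.35).

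Outside the lineage the ratios were similar. Ependymal-like cells (39 and 244) had 0.29 (0.21 to 0.37), mural-like cells (95 and 167) 0.17 (0.10 to 0.24), endothelial-like cells (55 and 90) 0.21 (0.15 to 0.28) and oligodendrocyte-like cells (74 and 101) 0.28 (0.22 to 0.35), beside all-gene medians of 0.15, 0.15, 0.08 and 0.08. In oligodendrocyte-like cells the subunits went from 10651 to 12976 CPM while the mitochondrially encoded subunits were at 8942 and 8897 CPM (-0.01, -0.08 to 0.07), and the median mitochondrial share was 4.85% and 4.77%. What lies behind the higher subunit sum in this class was not tested, and genotype and library cannot be told apart. Ndufa4 had ratios of 0.51 to 0.70 in the 4 classes outside the lineage, and Ndufc2 0.66 in oligodendrocyte-like, 0.76 in endothelial-like, 0.21 in mural-like and 0.14 in ependymal-like cells; the last 2 intervals include 0. The highest member was Ndufaf4 in activated NSC-like cells at 1.28 (0.01 to 2.94), Ndufa9 in ependymal-like at 1.32 (0.16 to 2.79), Ndufb9 in mural-like at 0.90, Ndufa8 in endothelial-like at 0.87 and Ndufs3 in oligodendrocyte-like cells at 0.87.

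**Figure D4:**
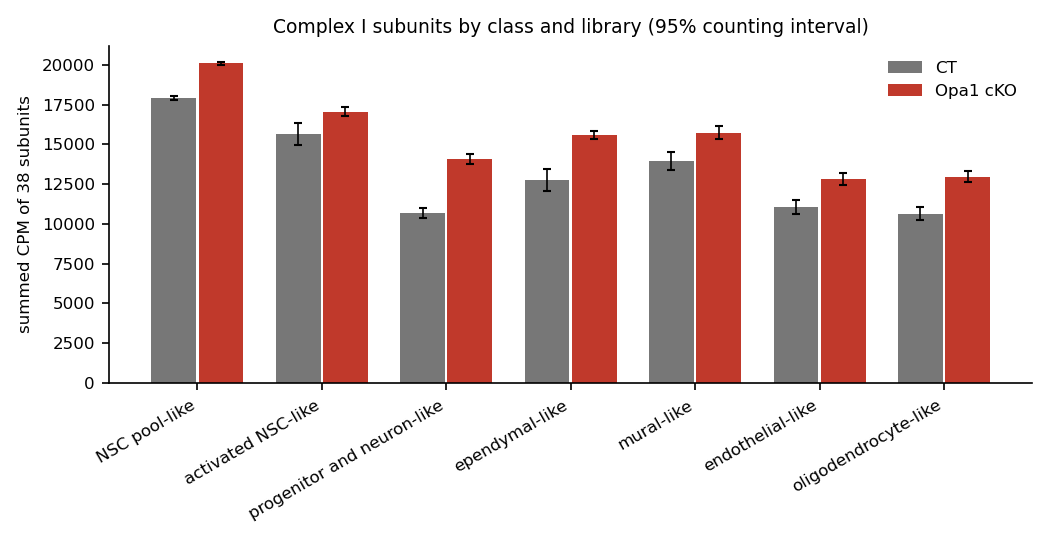
Summed CPM of the 38 subunits (y axis) with 95% counting intervals in each marker-defined class (x axis) for CT and Opa1 cKO. In every class the Opa1 cKO bar is taller than the CT bar, with the levels highest in NSC pool-like cells (17928 and 20109 CPM) and lower in oligodendrocyte-like cells (10651 and 12976 CPM).

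Low against normal share could be compared within Opa1 cKO in 4 other classes. Their cells of normal share had median shares of 2.81% (activated NSC-like), 3.52% (progenitor and neuron-like), 3.70% (ependymal-like) and 3.01% (mural-like). Normal-share CT cells of these classes had 5.98%, 4.25%, 6.41% and 3.70%. Median UMIs in low and normal cells were, in the same order, 2275.5 and 3147, 3185 and 3374.5, 3434 and 4464, and 1864 and 1504. The part of share and depth in the ratios was not tested. The summed subunits had ratios of -0.12 (-0.18 to -0.07) in activated NSC-like cells, -0.07 (-0.15 to 0.003) for progenitor and neuron-like cells, -0.08 (-0.14 to -0.01) for ependymal-like cells and -0.11 (-0.20 to -0.03) for mural-like cells. Ndufc2, followed here after its values were seen, had 2245 and 1493 CPM in activated NSC-like cells (-0.59, -0.77 to -0.41), 1540 and 1056 CPM in the progenitor and neuron-like class (-0.54, -0.80 to -0.28) and 995 and 608 CPM in ependymal-like cells (-0.71, -0.999 to -0.42). Mural-like cells did not show this, with 528 and 712 CPM (0.43, -0.03 to 0.88). Ndufv1 was the highest member in activated NSC-like cells at 0.70 (0.16 to 1.24). All-gene medians are not set beside the ratios of these 4 classes, so how far the members lie from other genes is not shown.

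Ndufa4l2 (chr10:127514967-127517154, plus strand), a homologue of Ndufa4 that is induced by hypoxia and is known as a pericyte gene, was high in the vascular classes. In mural-like cells it was counted 438 times in CT (2614 CPM, 2375 to 2870) and 813 times in Opa1 cKO (2412 CPM, 2249 to 2583), with a log2 ratio of -0.12 (-0.29 to 0.05). It was among the 10 leading genes of the mural-like cluster. Endothelial-like cells had 1460 CPM (340 UMIs) in CT and 1150 CPM (446 UMIs) in Opa1 cKO (-0.34, -0.55 to -0.14). In each of the other classes it had at most 19 UMIs. NSC pool-like cells had 16 UMIs (4.34 CPM) in CT, against 19 (2.15 CPM) in Opa1 cKO, activated NSC-like cells 1 and 4 UMIs, and progenitor and neuron-like cells 4 and 3 UMIs. Ependymal-like cells had 0 in CT, which allows up to 27.4 CPM (3 counts), and 19 UMIs in Opa1 cKO, and oligodendrocyte-like cells 0, which allows up to 10.4 CPM, and 5 UMIs (11.5 CPM). The mural-like and endothelial-like levels do not overlap those of any other class, and among the other classes the intervals overlap within CT. Within Opa1 cKO the intervals of ependymal-like cells (12.0 to 31.2 CPM) and oligodendrocyte-like cells (3.73 to 26.8 CPM) lay above that of NSC pool-like cells (1.30 to 3.37 CPM). The UMIs of the first 2 classes came from 8 of 244 and 3 of 101 cells. Such uneven spread over cells is not covered by the intervals, and these values are not read as class levels.

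The endothelial-like cells also held mural markers. Of these cells 53 of 55 in CT and 86 of 90 in Opa1 cKO had a UMI of Vtn, Rgs5 or Higd1b, with or without Ndufa4l2, and all 55 and 90 had a Cldn5 UMI, an endothelial marker. Ndufa4l2 UMIs per UMI of the mural list were 0.0621 in CT and 0.0642 in Opa1 cKO mural-like cells, and 0.0676 and 0.0632 in endothelial-like cells. All 14 mural markers were detected in the endothelial-like cells, at 21594 CPM in CT against 18190 in Opa1 cKO, which is more than the 12 endothelial markers took (18013 and 17164 CPM). The endothelial-like cells of Opa1 cKO also had 30539 CPM of erythroid markers, against 42.9 CPM in CT, and 4 of the 10 leading genes of that cluster are erythroid, so that its members are given as values only.

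Of mural-like cells, 90 of 95 in CT (94.7%) and 155 of 167 in Opa1 cKO (92.8%) had a Ndufa4l2 UMI. Thinned to 1500 UMIs the shares were 90.5% and 84.2%, with 53 and 66 shallower cells left out, against 0% and 1.98% of oligodendrocyte-like cells in CT and Opa1 cKO, a class that should lack the gene. NSC pool-like cells had 0.160% and 0.367%, which cannot be told from that background. Within Opa1 cKO mural-like cells Ndufa4l2 had 2808 CPM in the 99 cells of normal share and 1911 CPM in the 48 of low share, a log2 ratio of -0.56 (-0.80 to -0.32), beside an all-gene median of 0.07.

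**Figure D5:**
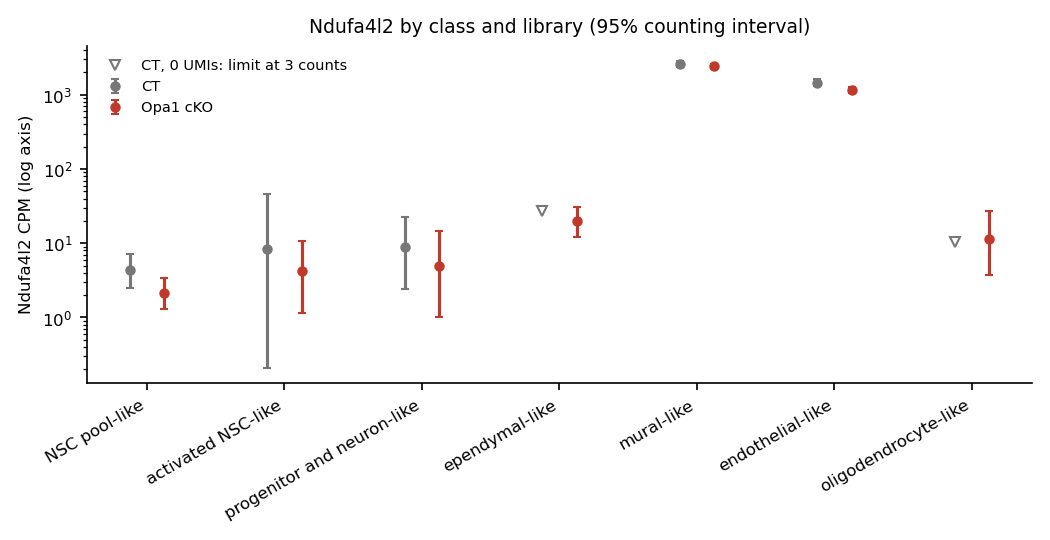
CPM of Ndufa4l2 on a log axis (y) with 95% counting intervals in each class (x) for CT and Opa1 cKO; open symbols stand for classes with 0 UMIs and are drawn at the limit that 3 counts allow. Mural-like cells lie at 2614 and 2412 CPM and endothelial-like cells at 1460 and 1150 CPM, and the points and limits of every other class at or below 27.4 CPM.

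Reads of related copies limit some members. Besides Ndufs3 and Ndufab1, stretches of the 3′ end shared with other genes made up 31% in Ndufs5, 30.8% in Ndufa12, 29% in Ndufb9 and 18.2% in Ndufb11. Ndufb2, Ndufb8 and Ndufb9 overlap another gene's exons on the same strand. None was found for Ndufc2, Ndufa4, Ndufv1, Ndufs1, Ndufa9, Ndufa10 or 7 of the 8 assembly factors, and in Ndufaf7 4.86% of stretches are repeated elsewhere.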

How the data were processed

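UMIs were measured in 2 libraries of the 10x Genomics 3′ assay, 1 per genotype. The deposited values are counts of UMIs per gene and cell barcode without normalization, which the authors made with Cell Ranger after alignment to mm10. The submitters' processing notes give version 2.1.1 and the matrix header 3.1.0. Barcodes were kept if they had over 600 but under 7500 genes, a mitochondrial share below 20% and 1 or more YFP UMIs, which left fewer cells than the study counts. Counts were normalized with SCTransform (sctransform 0.4.2) and clustered with Seurat 5.3.0 in R 4.3.3 on 8 components at a resolution of 0.2. Mitochondrial, 42 stress response and complex I genes were left out of the clustering. Clusters were named from marker lists in 2 passes, whose form was revised with the clusters in view, with at least 3 markers required. NSC pool-like clusters had 15 and 13 of 20 markers up. No doublet caller was run, and the deepest 5% of cells were left out as an alternative.

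UMIs were summed per library and class with python 3.11.15, numpy 2.4.6, pandas 2.3.3 and scipy 1.17.1, and divided by all UMIs of those cells (CPM). Intervals are exact Poisson for CPM and exact Clopper-Pearson for the split of 2 counts. They cover counting error only. The intervals for the split were checked on counts simulated with counting error alone, so that check does not reach the spread between cells or mice. Cells are not replicates, and no p-value was computed. All 47 members were matched by identifier to GENCODE M21 (mm10), from which gene positions are given. Named genes are the core subunits, all Ndufaf genes, Ndufa4, Ndufa4l2 and the members with the highest and lowest ratios in a comparison, up to 5 each; 1 member is counted in sums and is not reported here by itself. Of the other assembly genes and of Ndufc2 in other classes, those named were chosen after their values were seen. The members, gene lists and tests were chosen with earlier results of these data known.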

Additional observations from a re-analysis of the deposited data

How the results depend on the processing

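The summed subunit ratios in NSC pool-like cells, the counts of subunits called and the Ndufa4l2 ratio were recomputed, each under 9 to 12 of 13 alternatives, of which 12 were planned. Up to 10 of these were also applied, after seeing the data, to the arms, the assembly factors, Ndufc2 and the subunit sums of the other classes. When centred on the median gene, the matrix arm in low over normal share (0.12) reversed to -0.13 and the sum in activated NSC-like cells (0.12) to -0.053. The median subunit in low over normal share (0.03) was -0.05 with nuclear UMIs and -0.22 when centred. The ratio of Ndufa4l2 in mural-like cells (-0.12), whose interval includes 0, was 0.01 as the mean over cells of each cell's share. It was -0.27 (-0.44 to -0.10) when centred on the median gene and -0.15 (-0.26 to -0.04) with cells without a YFP UMI kept. Those last intervals leave out 0, while those of the other alternatives include it. The assembly factors in low over normal share (0.47) were 0.23 when centred, and the subunit sum in mural-like cells (0.17) was 0.02 when centred and 0.10 with thinned cells, both with intervals that include 0. The summed ratio of Opa1 cKO over CT (0.17) was 0.11 with nuclear UMIs as the total and 0.10 when centred on the median gene. It moved by less than its counting interval in 8 alternatives. The summed ratio of low over normal share (-0.04) was -0.11 with nuclear UMIs, -0.28 when centred, -0.0050 with cells without a YFP UMI kept (-0.017 to 0.0068), -0.019 without Ndufa4 and -0.070 with limits of 0.5% and 4% for the share groups. The 10 subunits called higher became 6 with nuclear UMIs, 4 when centred, 6 with cells thinned to 1500 UMIs and 1 at a 1.5-fold difference, and the count of 0 lower remained 0 in 12 alternatives. The share of all genes called under these alternatives is not given here. These counts therefore do not show a change particular to the subunits. Leaving out barcodes found in both libraries, the background of 1000 UMIs and the clusters taken alone were chosen after seeing the data. No paired analysis was possible because each genotype has 1 library and no result comes from a test, and for the same reason no replicate could be left out. Without cells of a YFP UMI required, no activated NSC-like class was found. Depth limits single members in the smaller classes, where 24 to 40 members had 100 UMIs.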
